A study of Mus musculus with 3 samples.

Results

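Mouse blastocysts from aging females were compared with blastocysts from young females, each without any treatment, over gene families and over the genes that several probes or a bright signal describe best. The young group came from female ICR mice 3 to 6 weeks of age and the aging group from females 43 to 53 weeks of age. In both, superovulated females were mated with males, zygotes were flushed from the oviducts 18 h after hCG, and the embryos were cultured for 96 h in KSOM, a standard medium for mouse embryos, to expanded blastocysts. Each group was 1 pool of 30 blastocysts hybridised to 1 array read in 1 dye (Cy3), so 2 of the 3 arrays of the series were compared. The third array held aging embryos whose CXCL5-CXCR2 signal was suppressed in culture (neutralizing antibody to CXCL5 at 10 μg/ml, selective antagonist of CXCR2 at 10 nM), and it is given only as a further level beside named genes. There were no replicates, so no test was made, and a difference between the arrays cannot be told apart from a difference between any 2 pools.

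The blastocyst is the last stage before implantation. Its outer layer, the trophectoderm, pumps sodium and water inwards to form the blastocoel cavity and later builds the placenta, whereas the inner cell mass holds the epiblast, which forms the embryo, and the primitive endoderm, which forms the yolk sac. Blastocyst RNA also carries large amounts of transcripts for ribosomes, mitochondria, proteasomes and chaperones, and maternal age is known for its effects on chromosome segregation and on mitochondria of the oocyte.

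A level is the log2 intensity of a probe after background subtraction, minus the 75th percentile of its array, and a difference is the level on the aging array minus that on the young array. A probe was measured if the scanner software called it well above background on both arrays. Of 23458 genes with a named probe, 14380 were measured and 9078 were not. The probe of a gene with the highest mean level stands for it, and its other probes are given beside it. The 25% of genes with the highest levels (2.36 or above on the mean of both arrays) are called bright. "Rose" and "fell" are used for differences of at least 2-fold (1 on the log2 scale), and smaller differences are given as values. In a pool, fewer cells of a type and less RNA per cell cannot be told apart.

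The 2 arrays were alike in quality. The scanner software called 58.4% of probes above background on the young array and 58.7% on the aging array, no spot was saturated, and the median local background was 39 on both. Replicate spots of 1 probe give the only repeat measure. Over 286 probes with replicate spots, the median SD was 0.05 on each array, the SE of a difference was 0.02, and 231 of these probes (80.8%) differed by over 2 such SE. This spread covers hybridization and not the embryos or the amplification. The deposited signal also holds the trophectoderm and epiblast markers at high levels, with Gata3 at 5.67 and 5.48 and Nanog at 9.88 and 10.14 on the young and aging arrays.

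Over 30448 measured probes, named or not, 2395 (7.87%) were at least 2-fold higher and 2671 (8.77%) at least 2-fold lower on the aging array. Over the 14380 genes, 1186 (8.25%) rose and 1063 (7.39%) fell, 52.1% were higher at any size and 47.9% lower, and the median difference was 0.03. These shares are the background for every gene family below. The SD of the difference depended on the level. With the probes cut by level into 10 classes of equal size, it was 1.05 in class 3 and 0.43 in the brightest, class 10. Past 2-fold were 29.7% of probes in class 2 and 3.22% in class 10. Among the 3595 bright genes, 79 (2.2%) rose and 127 (3.53%) fell, 53.9% were higher at any size, and 46.1% were lower.

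**Figure D1:**
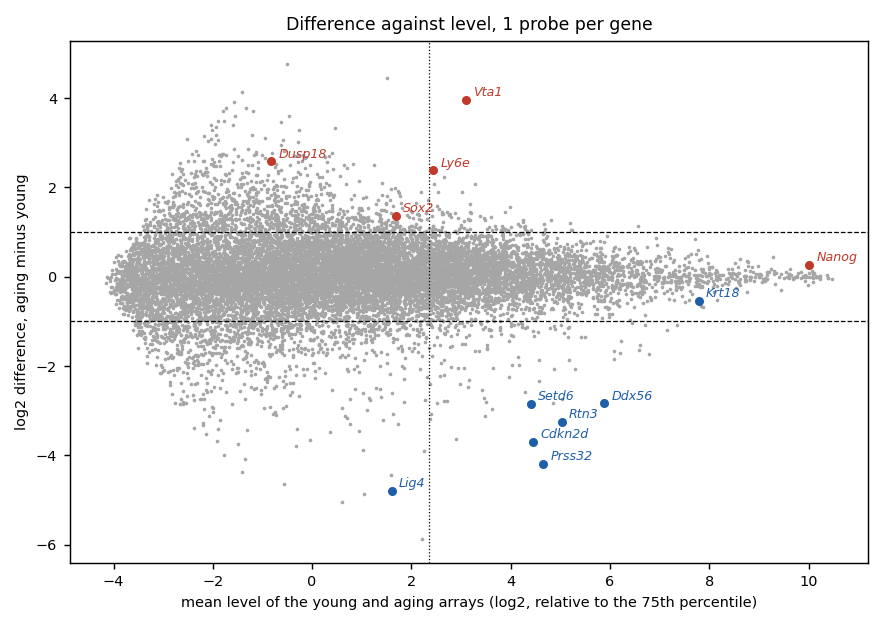
Log2 difference, aging minus young (vertical axis), against the mean level of the young and aging arrays (horizontal axis, log2 relative to the 75th percentile of the array), with 1 point for each of 14380 genes; dashed lines mark 2-fold and the dotted line the lower bound of bright genes (2.36). The cloud narrows with level, and named genes such as Prss32 (-4.19) and Cdkn2d (-3.70) lie below the cloud at bright levels where few genes lie above it.

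More than 1 probe was measured for 4861 genes. All probes were higher on the aging array for 1269 of them (26.1%), all were lower for 1205 (24.8%), and the probes disagreed for 2387. The shares of 26.1% and 24.8% are the background for the counts of agreeing probes in gene families below. The second probe went the same way as the first for 52.7% of genes in the dimmest of 4 classes by the second probe's level and for 64.3% in the brightest class. All probes were at least 2-fold higher for 64 genes (1.32%) and at least 2-fold lower for 50 (1.03%). The 10 genes each way with the largest such difference are described next.

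**Figure D2:**
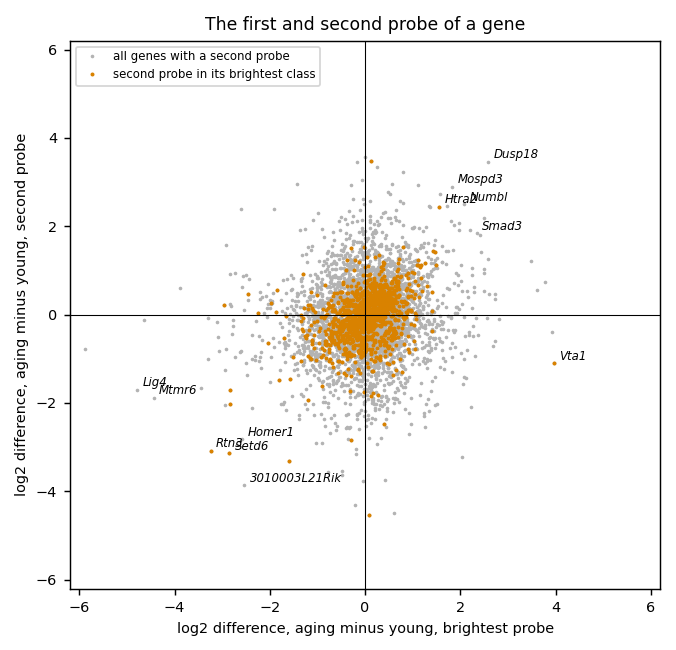
Log2 difference, aging minus young, of the brightest probe of a gene (horizontal axis) and of its second probe (vertical axis) for 4861 genes, with genes whose second probe lies in the brightest of 4 classes in orange. Points in the upper right and lower left have 2 agreeing probes, as Dusp18 (2.59 and 3.45) and Rtn3 (-3.24 and -3.08), whereas Vta1 (3.97 and -1.10) does not.

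Among the genes that rose by 2 agreeing probes, Smad3, which carries the signal of TGF-beta and activin receptors to the nucleus, was at -1.45 on the young and 0.89 on the aging array, a 5.06-fold difference, and its second probe gave 1.84. Tcf7, a transcription factor of the WNT pathway, went from -2.22 to -0.25, and its second probe gave 1.91. Numbl, a relative of the Notch inhibitor Numb, went from 1.43 to 3.50, with 2.50 for the second probe. These 3 genes were thus low or moderate on the young array and higher by both probes on the aging array. Dusp18, a dual-specificity phosphatase, showed the largest agreeing difference, from -2.12 to 0.47, with 3.45 for the second probe. Its suppressed aging level was -1.92. Flrt1, a membrane protein that binds FGF receptors, rose 5.65-fold from 0.00 to 2.50. Becn2, a relative of the autophagy protein Beclin, rose from 0.81 to 2.69. Faap24, of the Fanconi anaemia DNA repair complex, rose from -0.77 to 1.63. The other risers by this rule were Spata5, Shf and Mospd3, with smaller differences of 1.91, 1.84 and 1.83. The mitochondrial protease Htra2 had 3 probes, and its differences were 1.55, 2.44 and 2.23.

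Of the 10 genes with the largest decrease by all probes, Rtn3 and Setd6 were bright. Rtn3, a reticulon that shapes the tubules of the endoplasmic reticulum, stood at 6.65 (young), 3.40 (aging) and 4.41 (suppressed aging), so it was 9.47-fold lower in aging blastocysts, and its second probe gave -3.08. Setd6, a lysine methyltransferase, stood at 5.83, 2.98 and 3.69, with -3.14 for the second probe. Both stood higher on the young array than on either aging array. Homer1, a scaffold protein, fell from 0.89 to -1.69 (second probe -2.82), and Kash5, which ties meiotic telomeres to the cytoskeleton, fell from 0.75 to -1.62 (second probe -2.11). Mtmr6, a phosphoinositide phosphatase, fell from 3.80 to -0.64, but its second probe gave -1.88. Lig4, the DNA ligase of non-homologous end joining, fell from 3.999 to -0.79, a 27.6-fold difference, and its second probe gave -1.70. The remaining genes by this rule were 3010003L21Rik, Traf3ip2, Rdh11 and Phospho2, whose probe with the smaller difference gave -2.53, -2.04, -1.77 and -1.72. The agreement of 2 probes covers the 2 arrays and not other embryos.

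Bright genes over 5-fold apart were mostly lower in aging blastocysts. Of the 3595 bright genes, 23 (0.64%) were over 5-fold lower and 2 (0.0556%) over 5-fold higher. Prss32, a serine protease, fell from 6.76 to 2.56. Cdkn2d, the p19 inhibitor of CDK4 and CDK6, fell from 6.30 to 2.60, a 13-fold difference. Ranbp2, a large nucleoporin with SUMO ligase activity, fell from 4.71 to 1.07. None of these 3 had a second measured probe. Ddx56, a nucleolar helicase, was at 7.30 and 4.47. Its other probes gave -2.02 and 0.59. Hspa14, a ribosome-associated HSP70 relative, fell from 6.27 to 3.45, and its other probes gave -1.72 and -0.40. Mdm2, the ubiquitin ligase of p53, fell from 5.04 to 1.93, but its second probe, far dimmer, gave -0.16. Gfer, Kdsr, Zc3h3 and Tsn had a second probe in the opposite direction (0.22, 0.93, 0.93 and 0.46). Of the 23 genes, 11 had 2 or more probes, of which 6 had all probes lower and 2, Rtn3 and Setd6, had all probes past 2-fold.

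On the suppressed aging array the 23 genes stood between 0.08 and 4.74. Bex1 was the member whose suppressed level, 4.49, lay close to the young level of 4.81, against 2.11 on the aging array. The 2 genes over 5-fold higher were Vta1, a component of the endosomal sorting machinery, and Ly6e, a GPI-anchored surface protein. Vta1 went from 1.11 to 5.08 by its brightest probe, but the others gave -1.10 and -0.23. Ly6e went from 1.24 to 3.63 by its 1 probe. Bright genes below this fold that rose were Smim26 (1.55 to 3.79), Golga2 (2.07 to 3.97), a Golgi matrix protein, and Zfp217 (2.37 to 4.01), a zinc finger factor. Timm50, of the mitochondrial inner membrane import channel, rose from 2.25 to 4.33 by its brightest probe, while its second gave -0.06.

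**Figure D3:**
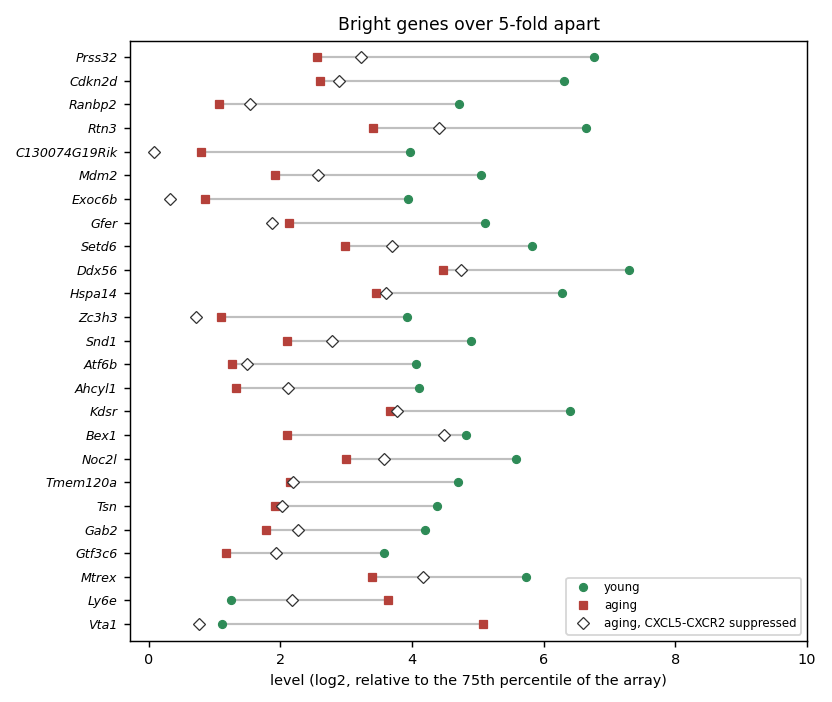
Levels (log2, relative to the 75th percentile of the array) of the 25 bright genes over 5-fold apart on the young (circles), aging (squares) and suppressed aging (diamonds) arrays, 1 pool each. The young level is the highest for the 23 upper genes and the aging level for Ly6e and Vta1 at the bottom, and the suppressed level of Bex1 (4.49) stands near the young one.

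The trophectoderm regulators were lower in aging blastocysts more often than higher. Of 17 measured, 11 were lower and 6 higher (median -0.16, and between -0.22 and -0.11 under all 12 alternative settings), and among the 11 bright ones 10 were lower. Of 6 with 2 or more probes, however, only 1 had all probes lower and none all higher. Cdx2, the homeobox factor that sets trophectoderm fate, was at 4.20 (young), 3.83 (aging) and 4.12 (suppressed aging). Gata3 was at 5.67, 5.48 and 5.98, and Tfap2a at 3.77 on the young and 3.49 on the aging array. Most of these differences were small beside the SD of 0.58 to 0.43 of probes at such levels. Tfap2c, an AP-2 factor, was the 1 member that fell, from 5.74 to 4.58, but its second, dim probe gave 0.08. Id2 was lower by 0.56. Elf5 and Cdh3, at lower levels, were higher by 0.91 each, and Esrrb, which is listed also with the epiblast, was the 1 that rose.

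The keratins and other intermediate filaments, which line the trophectoderm as the first epithelium, had a median of -0.52, with 8 of 10 members lower under this scaling and a negative median under all 12 alternatives. Krt18 went from 8.05 to 7.52. Its partner Krt8 was at 6.66 and 6.68. Krt7 fell from 1.78 to 0.61 and Vim, the filament of mesenchymal cells, from 1.60 to -0.15, while Krt19 was lower by 0.94. Among lamins, Lmnb1 was at 4.66 (young), 3.97 (aging) and 3.64 (suppressed aging). The 3 probes of Lmna gave -0.07, -0.68 and -0.82.

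The genes of the blastocoel, that is the sodium pump, aquaporins and junctions, had members of both signs, with more lower than higher among the bright ones. Of 38 measured, 18 were higher and 20 lower, none rose and 1 fell. The median was -0.08, and -0.28 to -0.02 under the 12 alternatives. Of the 23 bright ones, 15 were lower. Of 17 with 2 or more probes, 8 had all probes lower and 3 all higher, against 24.8% and 26.1% of all genes. Aqp3, a water channel of the trophectoderm, went from 6.32 to 5.60, with 6.12 on the suppressed aging array. The pump subunits Atp1b1 and Atp1b3 were lower by 0.15 and 0.54. The claudin Cldn4 was lower by 0.53 and Cldn6 higher by 0.47. Marveld2, tricellulin, fell from 1.94 to 0.47, and its second probe gave -0.63. Gja1, connexin 43, was higher by all 3 probes (0.58, 0.36 and 0.47). The junction molecule F11r was higher by 0.88. Tjp1, ZO-1, had probes at -0.32 and -1.72.

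The epiblast and pluripotency genes were mostly higher in aging blastocysts. Of 24 measured, 21 were higher and 3 lower (median 0.29, and 0.22 to 0.56 under the 12 alternatives), 4 rose (16.7%) and 1 fell (4.17%), against 8.25% and 7.39% of all genes. Sox2, a core pluripotency factor, stood at 1.004 (young), 2.37 (aging) and 2.11 (suppressed aging). Klf2 stood at 2.29, 3.60 and 2.67. Fgf4, the signal from the epiblast to its neighbours, stood at -0.32, 0.80 and 0.13. These 3 and Esrrb rose, each by 1 probe. The brightest members were close together on the 2 arrays: Nanog at 9.88 and 10.14 (a dimmer second probe gave 1.02), Dppa5a at 9.54 and 9.72, and Dppa3 at 7.48 and 7.52. Pou5f1, which encodes OCT4, was at 5.93 and 6.27. Tfcp2l1 was higher by 0.64, and Gdf3 by 0.50 and 1.25 at its 2 probes. Of 8 members with 2 or more probes, 5 had all probes higher and none all lower, against 26.1% and 24.8% of all genes. Nodal, at the dim end, fell from -2.21 to -3.56, and Prdm14 was lower by 0.85.

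Of 22 primitive endoderm genes measured, 11 were higher, and the median of 0.03 changed sign under 5 of the 12 alternatives, down to -0.41. Of these genes 4 fell (18.2%) and 2 rose (9.09%), and of 6 with 2 or more probes 3 had all probes lower and none all higher. The receptor Pdgfra (0.31 to 1.59) and Hnf4a (-2.17 to -0.67) rose, and Gata6 was higher by 0.99. Gata4 was at 3.30 and 3.26, but its second probe gave -0.75. Sox17 fell from 0.91 to -0.62, with 0.33 for its dimmer probe, and Srgn and Creb3l2 fell by 2.67 and 1.26 by 1 probe each. Among basement membrane genes, Lamc1 fell from 4.86 to 3.71 (second probe -0.98), Sparc, a collagen-binding matrix protein outside the 22, from 5.07 to 3.85 (second probe -0.46), and Col4a2 was lower by 0.91. Over the 32 laminins and collagens measured, however, 17 were higher and 15 lower, and 5 rose and 3 fell. Their median of 0.05 kept its sign under 6 of 12 alternatives, and 4 of the 5 bright members were lower. Both Lamc1 and Sparc stood near their aging level on the suppressed array as well, at 3.92 and 4.06.

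**Figure D4:**
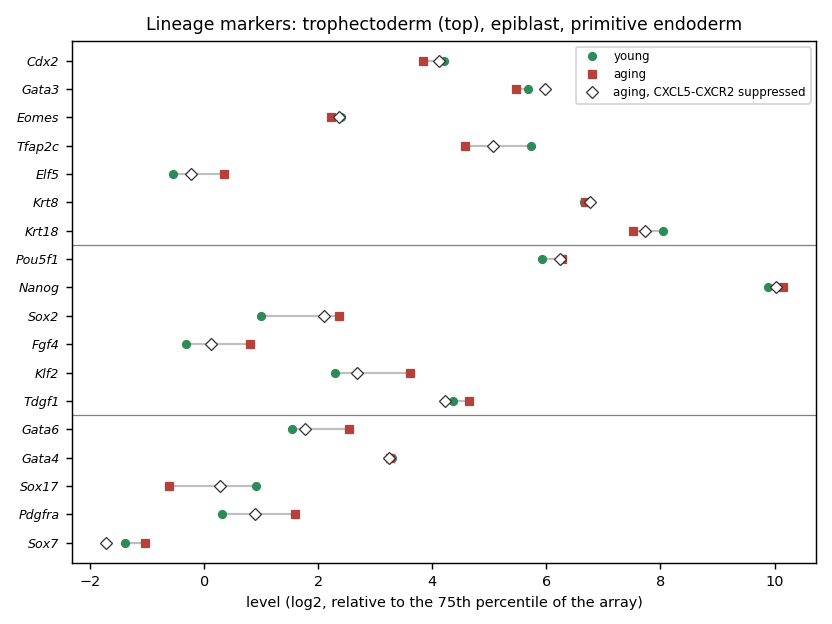
Levels (log2, relative to the 75th percentile of the array) of lineage markers on the young (circles), aging (squares) and suppressed aging (diamonds) arrays, 1 pool each. Each gene is shown by its brightest probe. Sox2, Klf2 and Fgf4 lie higher on the aging than on the young array, and Tfap2c and Sox17 lie lower. Krt8, Gata4 and Eomes differ little (-0.17 for Eomes). The second probes of Tfap2c and Sox17 went the other way, and those of Gata4 and Eomes gave -0.75 and -0.59.

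Genes of cholesterol synthesis were lower in aging blastocysts more often than higher. The pathway makes sterols from acetyl-CoA through mevalonate and is controlled by SREBP factors, which bind the sterol regulatory element beside factors of the CCAAT box. Promoters of 3 of its members are shown with those of 2 histone genes, since both families are read below. Each line gives the 250 bases before the RefSeq start in GRCm38.p6, 5′ to 3′ on the strand of the gene, with matches to CCAAT (either strand) and to TCACNCCAC, a form of the sterol regulatory element (either strand), in capitals. Hmgcs1 lies at chr13:119690101-119690350 (+), Idi1 at chr13:8885356-8885605 (+), Mvd at chr8:122443423-122443672 (-), H4c3 at chr13:23698459-23698708 (-) and H2ac20 at chr3:96220881-96221130 (-).
Hmgcs1: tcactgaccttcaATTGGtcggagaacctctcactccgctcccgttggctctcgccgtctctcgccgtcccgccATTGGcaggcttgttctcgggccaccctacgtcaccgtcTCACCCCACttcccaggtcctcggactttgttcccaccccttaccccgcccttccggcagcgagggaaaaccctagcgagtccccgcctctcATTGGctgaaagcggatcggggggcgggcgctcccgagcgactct
Idi1: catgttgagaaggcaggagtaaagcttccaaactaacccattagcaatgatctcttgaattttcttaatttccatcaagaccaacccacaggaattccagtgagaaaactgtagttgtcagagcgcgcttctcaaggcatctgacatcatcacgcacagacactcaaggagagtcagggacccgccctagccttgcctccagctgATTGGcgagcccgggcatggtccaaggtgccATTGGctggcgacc
Mvd: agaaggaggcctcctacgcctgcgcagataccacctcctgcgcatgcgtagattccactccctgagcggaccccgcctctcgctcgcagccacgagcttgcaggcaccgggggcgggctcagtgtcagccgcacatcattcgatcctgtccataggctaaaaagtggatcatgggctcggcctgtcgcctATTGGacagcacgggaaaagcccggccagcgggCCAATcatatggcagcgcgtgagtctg
H4c3: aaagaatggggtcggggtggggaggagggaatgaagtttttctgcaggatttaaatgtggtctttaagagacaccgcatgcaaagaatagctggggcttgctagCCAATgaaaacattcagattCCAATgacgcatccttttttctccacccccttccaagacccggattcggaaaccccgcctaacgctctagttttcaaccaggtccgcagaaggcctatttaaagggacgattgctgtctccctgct
H2ac20: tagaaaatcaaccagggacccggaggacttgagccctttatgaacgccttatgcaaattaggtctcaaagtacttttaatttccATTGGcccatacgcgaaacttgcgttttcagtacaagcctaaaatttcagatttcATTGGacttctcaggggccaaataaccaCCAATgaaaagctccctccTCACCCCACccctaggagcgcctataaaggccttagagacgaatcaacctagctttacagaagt

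Of the 25 measured cholesterol genes with a promoter in the table, 20 (80%) held CCAAT, as did 32 of 38 histone genes (84.2%), against 39.98% of all measured genes with a promoter. TCACNCCAC was in 1 of 25 cholesterol genes (4.0%), 1 of 38 histone genes (2.63%) and 1.24% of all measured genes. A match is a description of the letters and not a bound site.

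Of 35 cholesterol genes measured, 23 were lower and 12 higher (median -0.15, negative under all 12 alternatives), with 1 riser and 3 that fell. Mvd, which decarboxylates mevalonate diphosphate, fell from 3.44 to 2.37 and was at 2.41 on the suppressed aging array. Idi1, the isomerase of the next step, was at 6.13, 5.28 and 5.19. Hmgcs1, which makes HMG-CoA, was at 4.60, 4.06 and 3.51. All 3 were highest on the young array. Fdft1, squalene synthase, was lower by 0.73 and 0.68 at its 2 probes, Fdps by 0.68 and Pmvk by 0.68 and 0.15. Among the later sterol steps, Nsdhl and Cyp51 were lower by 0.67 and 0.21, Dhcr7 was higher by 0.20, and Sc5d rose from -0.73 to 0.90. The apolipoprotein Apoe was higher by 0.38 and 0.08. Lpl, lipoprotein lipase, fell from 5.16 to -0.71, a 58.5-fold difference, but its dimmer probes gave -0.79 and -0.54. Acly, which supplies acetyl-CoA from citrate, fell from 3.66 to 0.89, with -0.12 for its second probe.

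The replication-dependent histones were mostly higher in aging blastocysts. Of 42 measured, 35 were higher and 7 lower (median 0.33, and 0.10 to 0.37 under the 12 alternatives), and 23 of the 26 bright ones were higher, against 53.9% of all bright genes. H4c3 was at 3.43 and 4.28, H3c13 at 5.21 and 5.97 and H2ac20 at 6.99 and 7.41. H2bc4 and H2bc21 rose, from -0.79 to 0.37 and from -3.06 to -2.02. The linker histones went the other way in part: H1f5 fell from 4.29 to 2.76 and H1f4 was lower by 0.79. Core histone genes are near-identical copies, so a probe may read several of them, and the 42 values are not separate measurements and each gene's own value is uncertain. The histone variants and linkers, a list with the same lowest member (H1f5, -1.53), had a median of 0.01 over 19 genes.

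The cytosolic ribosomal proteins had a median difference near 0. Of 86 measured, 42 were higher and 44 lower, none rose and 1 fell, and the median was -0.0046. Rps10 was at 8.93 and 8.59 and Rps19 at 6.24 and 6.64, both with a second probe in the same direction (-0.20 and 0.23). Rpl17 was lower by all 3 probes (-0.60, -0.27 and -0.37), each an average over replicate spots, with SEs of 0.02, 0.01 and 0.03. Ribosomal protein genes have many processed copies in the genome, so a probe may also read a copy. Mitochondrial ribosomal proteins were higher for 50 of 77, with 1 riser (median 0.20, but -0.06 over members with 2 or more probes averaged). Mrpl22 was that riser, from 4.16 to 5.22 with 0.77 at its second probe, and Mrps18b was higher by all 3 probes (0.76, 0.88 and 0.46).

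The respiratory chain showed no common direction. Complex I had 19 of 36 subunits higher (median 0.05), and complexes II to IV 15 of 27 (median 0.11, with both medians changing sign under 1 alternative each). Ndufb10 fell from 5.50 to 3.64 and stood at 3.59 on the suppressed aging array. Ndufa10 was lower by 0.90 and 0.75. The ATP synthase had 9 of 17 lower (median -0.15, negative under all 12 alternatives), and of 7 with 2 or more probes 4 had all probes lower and 2 all higher. Atp5pb went from 4.97 to 4.16 (second probe -0.69), Atp5o from 6.42 to 5.87 (second probe -0.76) and Atp5h, by 3 probes, was lower by 0.52, 0.60 and 0.48. Atp5b, the catalytic beta subunit, had probes at -0.55 and 0.05. On the suppressed aging array Atp5pb was at 5.07 and Atp5h at 7.35, near their young levels, and Atp5o at 5.92, near its aging level. Vacuolar ATPase subunits, which acidify endosomes and lysosomes, were higher for 15 of 20 (median 0.16, positive under all 12 alternatives), among them Atp6v1b2, from 6.91 to 7.54 with -0.09 at its second probe.

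Glycolysis genes had a median of 0.05, with 21 of 38 higher, and the median turned negative under 1 alternative. Gapdh had 6 probes, all lower by 0.08 to 0.65. Pkm, which makes pyruvate, was higher by 0.56 and 0.21, and Ldha, lactate dehydrogenase, rose from 2.55 to 3.81 while its dim probe gave -0.41. Pfkp, a phosphofructokinase, fell by both probes (-2.22 and -1.05) from 0.23. Pfkfb3, which makes the activator of phosphofructokinase, rose from -1.62 to 0.10. The glucose transporters of the blastocyst Slc2a1 and Slc2a3 were lower by 0.30 and 0.08.

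**Figure D5:**
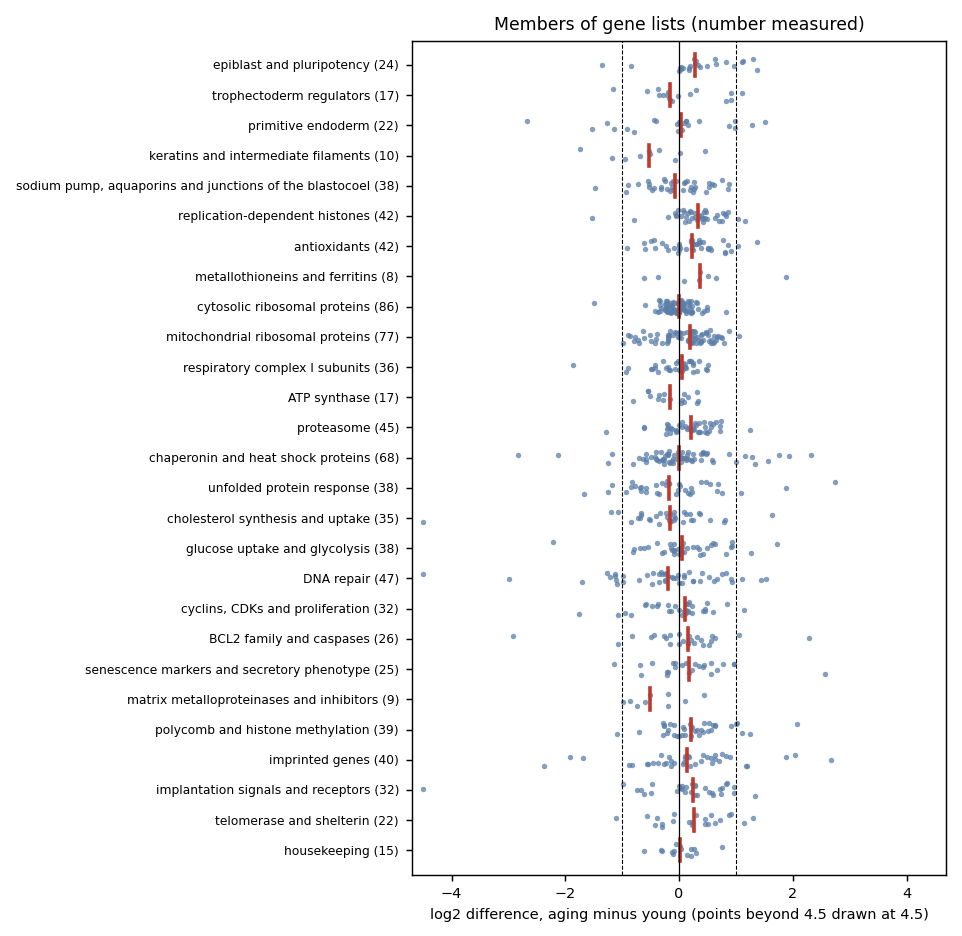
Log2 difference, aging minus young (horizontal axis), of the measured members (points, 1 probe per gene) of 27 gene lists, with the number measured in parentheses; red bars are medians and dashed lines mark 2-fold. Medians lie highest for metallothioneins and ferritins (0.36) and the replication-dependent histones (0.33), and lowest for keratins (-0.52) and metalloproteinases (-0.51, but 0.16 over members with 2 or more probes averaged).

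Listed antioxidant genes were mostly higher in aging blastocysts. Of 42 antioxidant genes, 30 were higher and 12 lower (median 0.23, and 0.16 to 0.25 under the 12 alternatives), 2 rose and none fell. Sod2, the superoxide dismutase of mitochondria, went from 3.15 to 4.07, and the cytosolic Sod1 from 6.25 to 6.68. Prdx1, a peroxiredoxin, was higher by all 3 probes (0.55, 0.28 and 0.41). On the suppressed aging array Sod2 was at 3.63 and Sod1 at 6.66. Glrx, glutaredoxin, rose from 3.42 to 4.46, and Gstm5, a glutathione S-transferase, from 0.27 to 1.65. Over the 18 glutathione S-transferase genes measured as a family, however, 10 were lower and 8 higher (median -0.19, but 0.26 over bright members), 3 rose and 2 fell, and Gsta3 was lower by both probes (1.02 and 0.33). Gpx4 and Gsr were higher by 0.38 and 0.51, whereas Gss, glutathione synthetase, was lower by 0.92 and 0.06. Txn1 and Hmox1 differed by 0.01 and -0.00. The 4 bright metal-binding genes were higher: Mt1 went from 7.38 to 7.89, Mt2 from 8.59 to 8.94, Ftl1 from 6.17 to 6.82 (second probe 0.27) and Fth1 from 4.99 to 5.36. The transferrin receptor Tfrc was lower by 0.62. Over the 8 measured genes of this list the median was 0.36, positive under all 12 alternatives.

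The proteasome had 30 of 45 subunits and assembly factors higher (median 0.21, but -0.02 over members with 2 or more probes averaged). Psmb4 was at 7.47 and 7.99 (second probe 0.60), and Psmb6 at 5.68 and 6.14 (second probe 0.64). The assembly chaperone Psmg4 fell from 4.44 to 3.16, and Psmg2 rose from -0.91 to 0.34. Ubiquitin conjugating enzymes were higher for 22 of 35 (median 0.18, positive under all 12 alternatives), and of 20 with 2 or more probes 10 had all probes higher and 3 all lower.

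Bright chaperones were more often lower than higher in aging blastocysts. Over all 68 genes, 34 were higher and 34 lower (median -0.0046), but of the 37 bright ones 24 were lower (median -0.19). Of 35 with 2 or more probes 11 had all probes lower and 3 all higher, against 24.8% and 26.1% of all genes. Hspa8, the constitutive HSP70, was lower by all 4 probes, from 9.59 to 9.30 by the brightest, with -0.14 to -0.29 over the 4. Hspa4 fell from 5.17 to 3.92 and was at 4.99 on the suppressed aging array, with -0.53 for its second probe. Hspd1, the mitochondrial HSP60, was lower by 0.36 and 0.87, and Hsp90aa1 by 0.43 and 0.23. Hsp90ab1 was at 8.99 and 9.04. The risers Dnajc27 (-3.60 to -1.27) and Hspa12a (-3.16 to -1.23) were at dim levels.

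Genes of the unfolded protein response, which answers misfolded protein in the endoplasmic reticulum, were lower for 23 of 38 (median -0.18, but 0.09 over members with 2 or more probes averaged). Hspa5, the lumenal chaperone BiP, fell from 5.48 to 4.30, and its other probes gave -0.36 and -0.68. Pdia3, a disulfide isomerase, was lower by 0.82 and 0.97, Manf by 0.57 and 1.06 and Herpud1 by 0.85 and 1.86. These 4 were among 5 genes lower by all of their probes, of 19 with 2 or more, and 6 were higher by all of theirs, such as Canx, calnexin, by 0.47 and 0.15, and Xbp1, a transcription factor of this response, from 2.04 to 2.71 by its brightest probe. Eif2ak3, the sensor kinase PERK, rose from -2.38 to 0.35, and its second probe gave 0.35. Atf6b, a membrane-bound transcription factor of this response, was among the 23 bright genes over 5-fold lower, from 4.05 to 1.26.

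Several aging markers that the study measured by other means were on the arrays. Cdkn2a (p16 and p19ARF) fell from -2.00 to -3.14 at a dim level, and its other probe was not well above background. Cdkn1a (p21) went from 1.96 to 2.32, but its second probe gave -0.41. Trp53 was lower by 0.20, and Il6, at -2.56 and -2.77, lower by 0.21. Cxcl5 was well above background on the young array only, at a dim -3.71, close to the lowest level so called on that array (-4.20). This level was 1.53-fold above the lowest level so called for any probe on the aging array (-4.32). The difference of Cxcl5 itself was thus not measured. Cxcr2 was not well above background on either array. From its arrays the study names the matrix metalloproteinases 1, 8, 9, 10 and 15 as decreased in aging embryos. Of the 2 arrays, Mmp1b (-4.09), Mmp9 (-1.79) and Mmp15 (-2.98) were above background on the young array only, by 1 probe each. Mmp9 was 4.78-fold above its uncalled aging reading, and Mmp15 2.54-fold above the lowest called aging level. Mmp1a, Mmp10 and the other probes of Mmp1b and Mmp9 were above background on no array. Mmp8 was lower by 0.75 at a dim level. Over the 9 metalloproteinases and inhibitors measured, 7 were lower and none was past 2-fold (median -0.51, but 0.16 over members with 2 or more probes averaged).

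Among the wider senescence list, 15 of 25 genes were higher (median 0.17, with a sign that changed under 4 of 12 alternatives). Plau, urokinase, rose from -0.98 to 1.58. The chromatin proteins Hmgb1 and Hmgb2, the latter known to be lost in senescent cells, were lower by every probe: Hmgb1 by 0.47, 0.52 and 0.59, and Hmgb2, at 6.52 and 5.86 by its brightest probe, by 0.57 to 0.74 over 4 probes. On the suppressed aging array the same probe of Hmgb2 stood at 6.59. Cxcl16, a chemokine, rose by both probes (1.39 and 1.18). The p53 targets had a median of -0.02, with 12 of 25 higher. Ddit4, an inhibitor of mTORC1, rose from 2.50 to 3.92 and stood at 3.55 on the suppressed aging array.

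The BCL2 family and caspases were higher for 16 of 26 (median 0.15, positive under all 12 alternatives). Of 9 members with 2 or more probes 6 had all probes higher and none all lower, against 26.1% and 24.8% of all genes. Bcl2l1, which encodes the survival protein BCL-XL, was higher by all 5 probes, by 0.38 to 1.11. Bax, its proapoptotic counterpart, was higher by 0.42 and 0.70. Apaf1, the scaffold of the apoptosome, rose from -1.24 to 1.04 (second probe 0.51). Bid fell from -0.56 to -3.47 and Bak1 from 1.34 to 0.26, each by 1 probe. The survival genes Mcl1 and Bcl2l2 were lower by 0.27 and 0.83.

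Genes of DNA repair were lower more often than higher. Of 47 measured, 29 were lower and 18 higher (median -0.20, and -0.47 to -0.03 under the 12 alternatives). Of these genes 9 fell (19.1%) and 3 rose (6.38%), against 7.39% and 8.25% of all genes. Only 12 were bright, 7 lower and 5 higher, with a median of -0.03, and dim probes pass 2-fold more often. Of 20 with 2 or more probes, 8 had all probes lower and 1 all higher, against 24.8% and 26.1% of all genes. Besides Lig4, the mismatch repair gene Pms2 fell from 2.61 to -0.39 and Nbn, of the double-strand break sensor complex, from -1.02 to -2.72. Chek1, the checkpoint kinase, fell from 3.44 to 2.31 (second probe -0.59), and Parp2 from 3.61 to 2.50 (second probe -0.62), with 2.94 and 3.71 on the suppressed aging array. Atr (-1.42 to 0.10), Rad54l (1.57 to 3.01) and Ercc4 (-0.54 to 0.58) rose, each by 1 probe.

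Proliferation genes did not share a direction, with 18 of 32 higher (median 0.10, negative under 1 alternative). Top2a, the topoisomerase of mitotic chromosomes, fell from 3.73 to 2.66 with -0.999 at its second probe, and Mki67, which encodes the proliferation marker Ki-67, was lower by 0.85. On the suppressed aging array they stood at 3.35 and 4.01. Cdk4 was higher by all 3 probes (0.18, 0.23 and 0.42), and Myc rose from 1.87 to 3.01 while its second probe gave 0.21. Cohesin, kinetochore and spindle checkpoint genes, which hold chromosomes together in oocytes and embryos, numbered 30 higher and 31 lower (median -0.01, but 0.24 over bright members). The kinesins had a median of -0.11, negative under all 12 alternatives.

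Chromatin regulators and imprinted genes gave differences of both signs. Polycomb and histone methylation genes were higher for 27 of 39 (median 0.21, but -0.09 over bright members), with 5 risers and 1 that fell. Ezh1 rose from 0.49 to 1.73, while Ezh2, its relative of dividing cells, was lower by 0.28, with 1 of its 5 probes higher. Tet1, which oxidizes methylcytosine and is known from the inner cell mass, rose from 2.44 to 3.56, and its second probe gave 0.94. The maintenance and de novo methylation genes Dnmt1, Dnmt3b and Dnmt3l were lower by 0.34, 0.02 and 0.26, with -0.72 for the second probe of Dnmt3b. Dnmt3a was at -0.03, but its second probe gave 1.53. Over the list of DNA methylation and imprint protection, 12 of 21 genes were higher (median 0.04), 3 rose and 1 fell. Of 40 imprinted genes, 24 were higher (median 0.13, negative under 1 alternative), 5 rose and 3 fell. Cdkn1c, a cell cycle inhibitor of the placenta, rose from -1.48 to 1.18 and stood at -0.65 on the suppressed aging array. Peg10 was lower by both probes (0.88 and 0.92) and Kcnq1ot1 by all 3 (0.55, 0.28 and 0.67), whereas H19 and Igf2 were higher by 0.11 each, with -1.10 for the second probe of Igf2.

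Implantation signals and receptors were higher for 24 of 32 (median 0.25, but -0.04 over members with 2 or more probes averaged). Igf1r, the IGF1 receptor, rose by both probes (1.34 and 2.45), and the leukaemia inhibitory factor receptor Lifr was higher by 0.53 and 1.497. Itga5, the fibronectin receptor subunit of the attaching trophoblast, fell from 3.12 to -1.92, a 32.9-fold difference from 1 probe. Hbegf, a ligand of EGF receptors, was lower by 0.67.

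As a check of the scale, the 15 housekeeping genes measured had a median of 0.02, with 8 higher, 7 lower and none past 2-fold. Single members ran from -0.62 to 0.75. The median lay between -0.08 and 0.10 under the 12 alternatives and kept its sign under 8 of them. Of 8 members with 2 or more probes, 1 had all probes higher and 3 all lower.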

How the data were processed

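The deposited files hold, per the file headers, the intensity of each spot after background subtraction and detrending within an array by Feature Extraction 12.0.3.1 (the submitters' processing notes), and the arrays were not normalized to each other. A further table by the authors holds this intensity times 1 factor per array. For amplification, the study's methods name a global PCR with a single primer and the labels a cRNA labelling kit, which the files do not settle.

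Control spots and spots marked as outliers (100 on the young, 85 on the aging array) were left out, spots of a probe were averaged as log2 intensities, and each array was scaled by subtracting its 75th percentile. Of 56591 probes with a value, 33759 were named through RefSeq accessions (GRCm38.p6, names and promoters only). The members of 41 gene lists and 49 symbol families were chosen with earlier results of these data known. Named genes are the 10 highest and 10 lowest by agreeing probes and by level, list members by level and difference, genes the study names and lineage markers. Other members named were chosen after their values were seen. Some genes are not reported here. With 1 array per group no p-value was computed and the number of arrays limits the precision. Calls are folds of at least 2. The procedures were tested on simulated data with known folds. Tools were Python 3.11.15, pandas 2.3.3, NumPy 2.4.6 and limma 3.58.1 in R 4.3.3 for the normexp alternative.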

Additional observations from a re-analysis of the deposited data

How the results depend on the processing

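No paired analysis was possible because each group has 1 array, and no replicate could be left out. At least 2-fold higher were 677 probes and lower 767 with normexp background correction, 1434 higher with the authors' table of processed values, which holds fewer spots, 3596 higher with probes above background on at least 1 array, 5801 higher and 7232 lower with all probes, and 231 and 315 at 5-fold, against 2395 and 2671. Higher calls were 44.5% to 49.3% of all calls across the scalings. Of the gene lists, 54 of 86 kept the sign of the median over members with 2 or more probes averaged. The median of all genes moved to -0.11 with all probes. Bright genes over 5-fold higher were 1 with normexp correction and 1 with the authors' table, against 2, and those over 5-fold lower 19 to 24, against 23. The alternatives for these bright genes and for the spot SD (0.0527 with marked spots kept) were added after seeing the data. Of 111 named genes past 2-fold, 79 stayed past it with normexp correction, 95 with the mean over a gene's probes and 106 of 110 with the authors' table, and none changed sign. The cause of these moves was not tested. Dim probes limit the comparison, since 29.7% of probes in class 2 of 10 by level were past 2-fold.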

Other observations

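Markers of other cells that a blastocyst pool could hold were counted on both arrays. Of 18 cumulus and granulosa genes 6 were measured (2 higher and 4 lower), of the oviduct and uterine epithelium list 3 (1 higher and 2 lower), and of the blood and immune list 7 (4 higher and 3 lower). Foxl2, a granulosa factor, was bright on all 3 arrays (8.66 young, 8.54 aging and 8.77 suppressed aging), as was Itgam, of macrophages and neutrophils (7.91, 7.71 and 7.82), while Cyp19a1, the granulosa aromatase, stood at -1.18 and -1.31. Slc4a1, the anion exchanger of red cells, rose from -3.22 to -0.50, and the alpha-globin genes Hba-a1 and Hba-a2 gave 0.91 and 1.68 by their brightest probes; the globin genes are near-identical copies. Among 17 maternal oocyte genes the zona pellucida genes Zp2 (-3.29 to -0.94) and Zp3 (-3.05 to -0.97) rose at dim levels, and Nlrp5 was lower by 0.30. The part of other cells in the differences was not tested.

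Other families showed single members that moved. Of 18 DUSP phosphatases, which switch off MAP kinases and other targets, 4 rose (22.2%) and none fell, against 8.25% and 7.39% of all genes. Among them were Dusp22 (-3.70 to -1.70) and Dusp3 (-0.98 to 0.65) beside Dusp18. Of 59 RAB GTPase genes 9 rose (15.3%) and 2 fell (3.39%), against the same shares, but only 18 of the 59 were bright. Of 23 RAB genes with 2 or more probes, 4 had all probes higher and 8 all lower, against 26.1% and 24.8% of all genes. Rab3a rose from -3.50 to -1.26, and Rab3d fell from -1.24 to -2.67 with -1.08 at its second probe. Among amino acid transporters Slc36a1 (-3.68 to -1.09, second probe 1.26) and Slc7a5 (0.77 to 2.70) rose, and Slc15a2, a peptide transporter, fell from 5.70 to 4.44 with -0.49, -0.49 and -0.77 at its other probes. Genes of the WNT pathway were lower for 16 of 28 (median -0.09, negative under all 12 alternatives), and 4 rose and 4 fell. Of 14 with 2 or more probes, 4 had all probes higher and 2 all lower. Wls, which carries WNT proteins to the cell surface, rose by both probes (1.51 and 1.05). Gsk3b was the lowest member, at -1.31 with -0.36 for its second probe. Lats2, a Hippo kinase, rose from -1.09 to 1.61, but its second probe gave -0.71. Olfactory receptors were lower for 124 of 210, with a median of -0.09. Only 3 of them were bright, and over all probes the median difference was -0.14, -0.09 and -0.08 in the dimmest 3 of 10 classes by level.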
